A study of Rattus norvegicus with 12 samples.

Results

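The urea cycle and the breakdown of amino acids are described here through 44 genes, chosen by name for their place in these pathways, of 14217 genes measured in rat liver. All 44 were found on the array. Each was read from 1 probe set, the one with the highest mean over 12 arrays, and 7 of them had further probe sets. The members fall into 12 pathways: 7 genes of the urea cycle, 4 of glutamate, aspartate and alanine, 5 of phenylalanine and tyrosine, 4 of tryptophan, 8 of methionine, homocysteine and choline, 3 of serine, glycine and glyoxylate, 2 of cysteine and taurine, 3 of histidine, 2 of pyrimidines, 2 of proline, 1 of lysine and 3 of the branched-chain amino acids.

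The RNA came from livers of Long Evans Cinnamon rats (LEC/Crj) and of Long Evans Agouti rats (LEA), all labelled male and kept free of specific pathogens. LEC rats lack a working copper transporter, Atp7b, store copper in the liver, and go through hepatitis to liver tumors as they age. The groups were LEC liver tumor at 67 weeks (4 arrays), LEC nontumor liver at 67 weeks (4 arrays), and 1 array each for LEC liver at 4, 26 and 39 weeks and for LEA liver at 67 weeks, the control. Each tumor or nontumor array held equal amounts of RNA from 2 of 8 matched tumor and neighbouring liver samples, drawn at random, and each of the other 4 held 1 mixture whose number of rats the labels do not give. The labels name no treatment, the Atp7b defect is shared by all LEC groups, and the LEA control differs from them in strain.

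An amino acid is broken down in the liver by removal of its nitrogen and by entry of its carbon skeleton into central metabolism. The nitrogen reaches the urea cycle as ammonia, released by glutaminase and glutamate dehydrogenase, and as aspartate, made by transaminases. The cycle starts in the mitochondria of hepatocytes, ends in their cytosol and yields urea. Many of these enzymes are far more abundant in hepatocytes than in other cells, and several respond to glucocorticoids, glucagon and dietary protein.

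Values are log2 expression values, on which 1 unit is a 2-fold step, and a level can be compared between arrays for the same gene but not between genes. Levels are given array by array. Differences are log2 differences ± standard error from limma, whose two-sided p-values were adjusted over all probe sets, and a gene is said to have risen or fallen where the adjusted p was under 0.05. The labels do not say whether a rat entered more than 1 mixture, so these p-values measure only the spread between these arrays. Array medians lay between 7.39 and 7.51. The brightest of 27 probe sets for bacterial genes absent from rat RNA lay between 5.52 and 6.22, and a member at or under the value of its array is called not above the absent level here. The labelled sex went against Xist and Eif2s3y on 10 arrays. Xist, an RNA of the inactive X chromosome, lay between 11.36 and 13.12 on those 10 and at 5.27 and 5.67 on the arrays labelled LEC 26 and 39 weeks, while the Y-linked gene Eif2s3y lay at 8.90 and 8.18 on the latter and between 3.65 and 3.81 elsewhere. The third sex-chromosome gene measured, also Y-linked, did not follow Eif2s3y. It lay between 9.97 and 10.70 on the 10 arrays, and above Eif2s3y on the arrays labelled LEC 26 and 39 weeks. The tumor and nontumor arrays are all among the 10.

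The comparison of tumor with nontumor liver of the same age asks which liver functions differ in the tumors. All 44 genes fell. Over all measured genes, 29.2% fell and 38.8% rose, and the median difference was 0.07. Among the members the median difference was -2.86. Dmgdh, which oxidizes dimethylglycine from choline, fell the most, by 18.0-fold (-4.17 ± 0.62), and Ahcy, which splits S-adenosylhomocysteine, fell the least, by 1.91-fold (-0.93 ± 0.09). Of the 44, 43 fell by 2-fold or more and 21 by 8-fold or more. Adjusted p-values (limma) ran from 1.6e-05 for Gpt to 0.031 for Cps1. For every member all 4 tumor arrays lay below all 4 nontumor arrays, an arrangement found in 27.7% of all genes, and the gap between the lowest nontumor and the highest tumor array ran from 0.0845 (Cps1) to 2.31 (Cbs). When the arrays were quantile normalized again or their medians subtracted, the median over all genes moved to -0.04, and the member median moved to -3.04 and -2.96. In whole tissue, fewer hepatocytes and less of an RNA in each hepatocyte cannot be told apart.

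**Figure D1:**
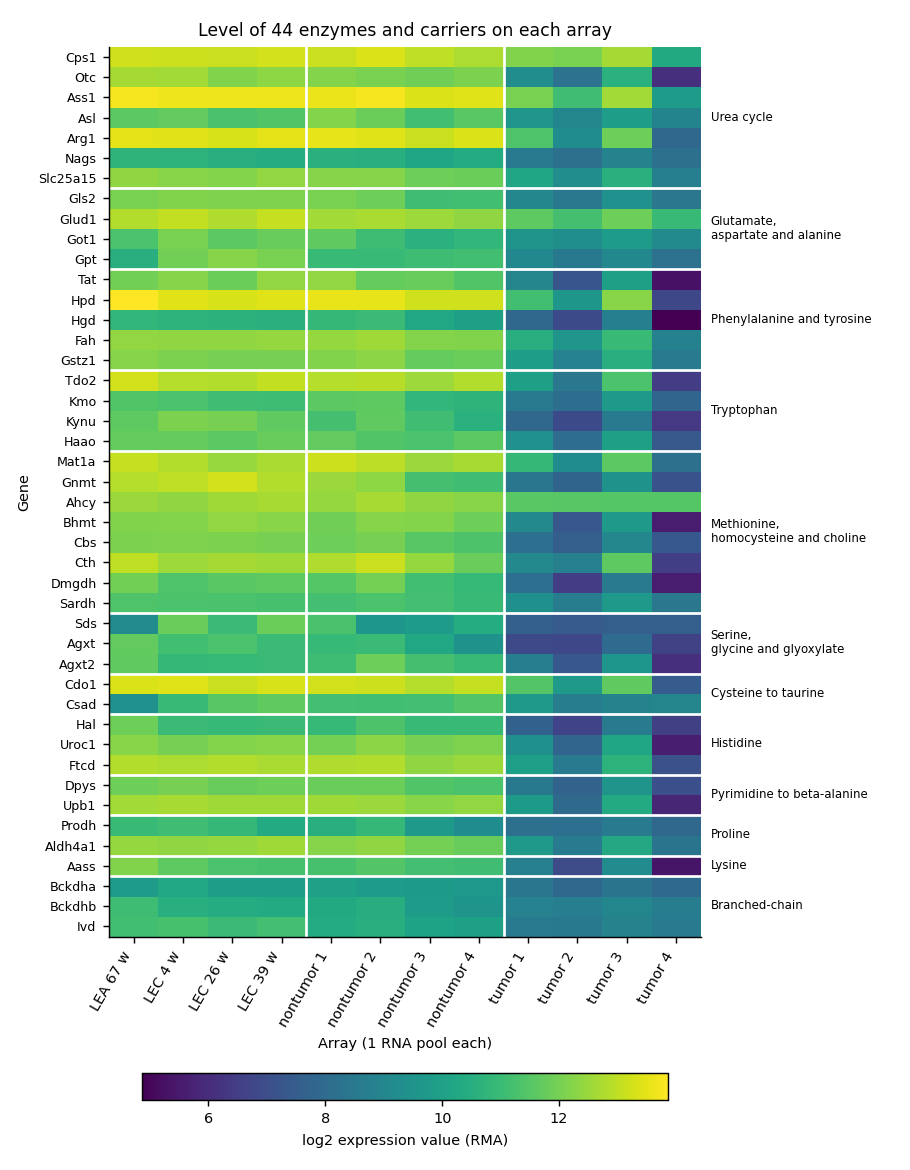
Log2 expression value of the 44 genes (rows, grouped by pathway) on each of the 12 arrays (columns), with brighter colors for higher levels. The 4 single pools and the 4 nontumor arrays are alike in color for most genes, the 4 tumor arrays are darker, and tumor array 4 is the darkest in 38 of 44 rows.

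Within the urea cycle all 7 genes fell, with a pathway median of -2.34. Cps1 makes carbamoyl phosphate from ammonia and sets the entry to the cycle. Its levels were 13.15, 13.35, 13.01 and 12.75 on nontumor arrays 1 to 4 and 12.17, 12.05, 12.66 and 10.32 on tumor arrays 1 to 4, and the LEA pool stood at 13.22 and the LEC pools of 4, 26 and 39 weeks at 13.16, 13.14 and 13.25. Tumor array 4 stood far below the rest and tumor array 3 just below the lowest nontumor array, and the mean difference was -1.26 ± 0.44 (adjusted p = 0.031). This call was lost without nontumor array 1, 2 or 3 (adjusted p from 0.0596 to 0.069), and without tumor array 4 the difference was -0.77. A second probe set of Cps1 gave a larger fall (-2.66 ± 0.60, adjusted p = 0.00461). Nags, which makes the N-acetylglutamate that switches Cps1 on, fell by 1.97 ± 0.17 on a steadier pattern: 10.58, 10.49, 10.18 and 10.40 on the nontumor and 8.55, 8.17, 8.88 and 8.20 on the tumor arrays.

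Otc joins carbamoyl phosphate to ornithine. It was read at 12.20, 12.04, 11.92 and 12.10 on the nontumor arrays and at 9.26, 8.28, 10.60 and 6.09 on the tumor arrays, and in the pools LEA lay at 12.67 and LEC at 12.61, 12.17 and 12.33 by age. Otc fell by 11.4-fold (-3.51 ± 0.79, adjusted p = 0.00434), the largest fall of the cycle, and its tumor arrays spread over 4.51 log2 units while its nontumor arrays spread over 0.274. Slc25a15 carries ornithine into the mitochondria and fell by 2.35 ± 0.36. All 5 further probe sets of Slc25a15 were lower in tumor too, at -2.90 to -0.30, the last on a probe set near the absent level in both tissues.

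The cytosolic steps fell as well. Ass1 joins citrulline and aspartate. Ass1 read 13.62, 13.76, 13.38 and 13.44 in nontumor and 12.04, 11.09, 12.62 and 9.80 in tumor, and it was 13.75 in LEA and 13.63, 13.65 and 13.63 in LEC at 4, 26 and 39 weeks, a fall of 4.48-fold (-2.16 ± 0.52, adjusted p = 0.00591). Asl releases arginine from argininosuccinate. Its levels were 12.18, 11.83, 11.15 and 11.56 in nontumor and 9.57, 9.01, 9.86 and 8.93 in tumor, and LEA read 11.58 and LEC 11.71, 11.30 and 11.42 at 4, 26 and 39 weeks. The tumor arrays of Asl lay within 0.936 of each other, closer than its nontumor arrays (1.02), around a difference of -2.34 ± 0.26 (adjusted p = 1.0e-04).

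Arg1 splits arginine into urea and ornithine and ends the cycle. It stood at 13.53, 13.42, 13.13 and 13.37 in nontumor liver and 11.40, 9.25, 11.87 and 7.89 in tumor, and the LEA pool stood at 13.48 and the LEC pools of 4, 26 and 39 weeks at 13.45, 13.33 and 13.51. The nontumor and single-pool values of Arg1 lay close together, whereas tumor arrays 2 and 4 lay far under tumor arrays 1 and 3. The mean fall was 9.60-fold (-3.26 ± 0.77, adjusted p = 0.00569).

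**Figure D2:**
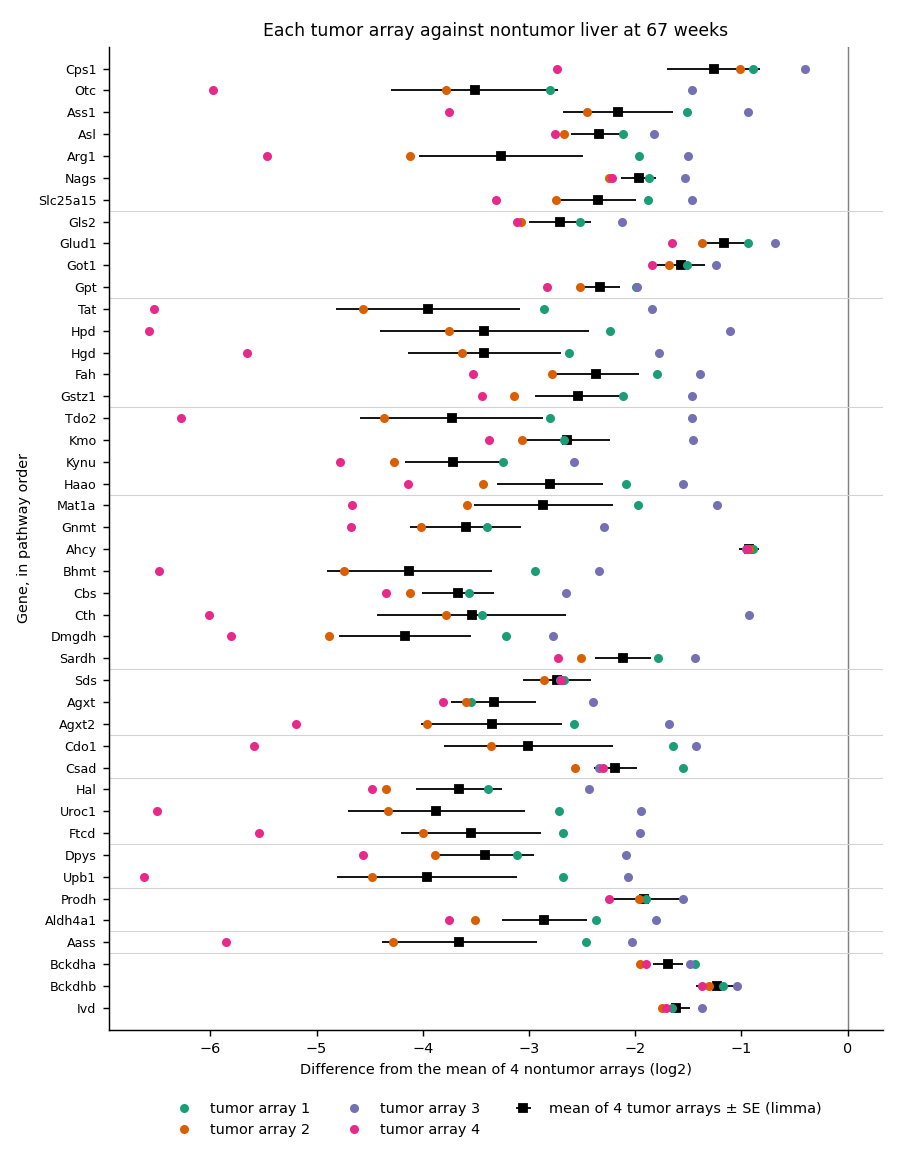
Difference of each tumor array from the mean of the 4 nontumor arrays, in log2 units (horizontal axis), for the 44 genes in pathway order (vertical axis). Colored points are single tumor arrays and black squares the mean of 4 with its standard error from limma. Every point lies left of 0, tumor array 3 is nearest to 0 in 40 genes, and points spread widely for Hpd and hardly at all for Ahcy.

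The 4 genes that feed nitrogen into the cycle fell, with a pathway median of -1.95. Gls2, the liver glutaminase, releases ammonia from glutamine and fell the most of them. It read 12.06, 11.88, 11.11 and 11.13 in nontumor liver and 9.02, 8.47, 9.42 and 8.43 in tumor, a difference of -2.71 ± 0.29 (adjusted p = 7.5e-05). Glud1 releases ammonia from glutamate and fell the least, by 2.24-fold (-1.16 ± 0.20, adjusted p = 9.9e-04). Its values were 12.62, 12.73, 12.55 and 12.37 in nontumor and 11.63, 11.19, 11.88 and 10.92 in tumor, and in the pools LEA lay at 12.82 and LEC at 13.03, 12.81 and 13.06 by age. A second probe set of Glud1 gave -1.13. The transaminases of aspartate, Got1 (-1.57 ± 0.22), and alanine, Gpt (-2.33 ± 0.18), fell as well. All 4 genes had tumor arrays within 1 log2 unit of each other.

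The 5 steps of tyrosine breakdown fell, with a median of -3.42. Tat removes the amino group of tyrosine and is a classic target of glucocorticoids. Its levels were 12.39, 11.72, 11.77 and 11.43 in nontumor and 8.97, 7.26, 9.99 and 5.29 in tumor, and it was 11.95 in LEA and 12.22, 11.83 and 12.42 in LEC at 4, 26 and 39 weeks. Tat fell by 15.5-fold (-3.95 ± 0.87, adjusted p = 0.00388), and on tumor array 4 it was not above the absent level. Hpd, the next enzyme, had the widest spread of any member over the tumor arrays. Hpd read 13.57, 13.54, 13.20 and 13.22 in nontumor liver and 11.15, 9.63, 12.27 and 6.80 in tumor, so that tumor array 3 lay at -1.11 and tumor array 4 at -6.58 from the nontumor mean. Hgd, which opens the ring, fell by 3.42 ± 0.72 and was not above the absent level on tumor array 4.

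Fah, whose loss causes hereditary tyrosinemia, completes the pathway and fell the least of the 5. It stood at 12.44, 12.57, 12.18 and 12.16 in nontumor and 10.54, 9.56, 10.95 and 8.81 in tumor (-2.37 ± 0.41, adjusted p = 0.00111). Gstz1, the isomerase before Fah, fell by 2.54 ± 0.40.

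Tryptophan breakdown through kynurenine fell at all 4 steps, with a median of -3.26. Tdo2 opens the indole ring of tryptophan and is the liver's own enzyme for that step. Its levels were 12.87, 12.90, 12.53 and 12.83 in nontumor and 9.98, 8.42, 11.32 and 6.51 in tumor, and LEA read 13.26 and LEC 12.85, 12.82 and 13.03 at 4, 26 and 39 weeks. Tdo2 fell by 13.3-fold (-3.73 ± 0.86, adjusted p = 0.00496). Kynu, which cleaves kynurenines, fell by nearly the same amount with a smaller error (-3.72 ± 0.45, adjusted p = 1.5e-04). Haao, which makes the precursor of quinolinate, fell by 2.80 ± 0.50. Kmo hydroxylates kynurenine and fell the least, from 11.59, 11.63, 10.83 and 10.72 to 8.52, 8.13, 9.74 and 7.81 (-2.64 ± 0.40, adjusted p = 5.6e-04).

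Methionine, homocysteine and choline breakdown held both the largest and the smallest fall, around a median of -3.57. Mat1a makes S-adenosylmethionine in hepatocytes. It read 13.18, 12.98, 12.52 and 12.67 in nontumor and 10.87, 9.25, 11.60 and 8.17 in tumor, and the LEA pool stood at 13.06 and the LEC pools of 4, 26 and 39 weeks at 12.84, 12.48 and 12.73, a fall of 7.28-fold (-2.86 ± 0.65, adjusted p = 0.00472). Gnmt, which uses up S-adenosylmethionine by methylating glycine, fell by 3.59 ± 0.52. Ahcy follows both. Ahcy lay at 12.44, 12.69, 12.36 and 12.28 in nontumor and at 11.55, 11.51, 11.49 and 11.49 in tumor, so that the 4 tumor arrays differed by only 0.07 around a difference of -0.93 ± 0.09 (adjusted p = 5.4e-05).

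Homocysteine can be methylated again by Bhmt or pass to cysteine through Cbs and Cth. Bhmt fell by 17.5-fold, from 11.90, 12.23, 12.20 and 11.88 to 9.11, 7.32, 9.72 and 5.57 (-4.13 ± 0.78, adjusted p = 0.00178), and was not above the absent level on tumor array 4. Cbs fell by 3.67 ± 0.34 and had the widest gap between the tissues. Cth fell by 3.54 ± 0.89, and its spread was uneven: 9.11, 8.77, 11.62 and 6.54 on tumor arrays 1 to 4, so that array 3 lay only 0.184 below the lowest nontumor array. Dmgdh and Sardh take methyl groups off dimethylglycine and sarcosine in mitochondria. Dmgdh read 11.51, 11.99, 11.13 and 10.88 in nontumor and 8.16, 6.49, 8.60 and 5.56 in tumor (adjusted p = 4.9e-04), with tumor array 4 not above the absent level, and Sardh fell by 2.11 ± 0.26.

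Serine, glycine and glyoxylate genes had a median difference of -3.33. Agxt2, a mitochondrial aminotransferase, fell the most, from 11.05, 11.89, 11.21 and 10.92 to 8.70, 7.31, 9.59 and 6.08 (-3.35 ± 0.66, adjusted p = 0.00229). Agxt, which turns glyoxylate into glycine, fell by 3.33 ± 0.40. Sds makes pyruvate from serine for gluconeogenesis. Sds was uneven outside the tumors and even in them: 11.29, 9.59, 9.84 and 10.44 in nontumor liver but 7.62, 7.43, 7.58 and 7.59 in tumor, and in the pools LEA lay at 9.19 and LEC at 11.80, 11.01 and 11.85 by age. Its difference was -2.73 ± 0.32 (adjusted p = 1.2e-04).

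Of the pair that makes taurine from cysteine, Cdo1 fell by 8.03-fold, from 13.24, 13.17, 12.87 and 13.06 to 11.44, 9.72, 11.66 and 7.49 (-3.01 ± 0.80, adjusted p = 0.00994). Csad, the decarboxylase after it, fell by 2.19 ± 0.20 (adjusted p = 3.4e-05), from 11.19, 11.14, 11.17 and 11.46 to 9.69, 8.68, 8.90 and 8.94. Here tumor array 1 was the highest and array 2 the lowest.

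Histidine breakdown fell at its 3 measured steps, with a median of -3.66. Uroc1, the urocanase, fell the most, from 12.00, 12.29, 12.01 and 12.14 to 9.39, 7.78, 10.17 and 5.61 (-3.87 ± 0.83, adjusted p = 0.00355). Ftcd, which hands the last carbon to folate, fell the least, from 12.78, 12.83, 12.36 and 12.50 to 9.94, 8.62, 10.67 and 7.07 (-3.54 ± 0.66, adjusted p = 0.00164). Hal, which starts the pathway, fell by 3.66 ± 0.41.

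Pyrimidine breakdown to beta-alanine fell at both measured steps. Upb1, the last enzyme, went from 12.59, 12.52, 12.27 and 12.40 in nontumor to 9.77, 7.96, 10.37 and 5.82 in tumor (-3.96 ± 0.85, adjusted p = 0.00341). Dpys, the step before, went from 11.81, 11.85, 11.42 and 11.32 to 8.49, 7.72, 9.51 and 7.04 (-3.41 ± 0.45, adjusted p = 2.6e-04). In lysine breakdown the single gene Aass read 11.23, 11.44, 11.18 and 11.09 and 8.77, 6.96, 9.20 and 5.38 (-3.66 ± 0.73, adjusted p = 0.00238), and array 4 was again not above the absent level.

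The proline genes had a median of -2.39 and the branched-chain genes one of -1.62. Aldh4a1, the second proline enzyme, fell by 2.86 ± 0.40 (adjusted p = 3.5e-04), from 12.24, 12.36, 11.98 and 11.77 to 9.72, 8.58, 10.28 and 8.33. Prodh, the first, was uneven in nontumor liver, at 10.55, 10.86, 9.73 and 9.23, and even in tumor, at 8.19, 8.13, 8.54 and 7.85 (-1.92 ± 0.33, adjusted p = 0.00116). Bckdha and Bckdhb are the subunits of the enzyme that commits branched-chain keto acids to breakdown, and Ivd acts next on leucine.

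Bckdha fell the most of these, from 10.00, 9.84, 9.77 and 9.66 to 8.38, 7.86, 8.34 and 7.92 (-1.69 ± 0.14, adjusted p = 1.9e-05), and Bckdhb the least, from 10.32, 10.47, 9.82 and 9.52 to 8.86, 8.72, 8.99 and 8.66 (-1.23 ± 0.20, adjusted p = 7.9e-04). Ivd stood at 10.39, 10.54, 10.07 and 9.99 in nontumor and 8.59, 8.50, 8.87 and 8.54 in tumor (-1.62 ± 0.14, adjusted p = 2.5e-05). A second, dim probe set gave -0.24 for Prodh and -0.38 for Bckdha, and taking the mean over the probe sets of a gene moved the difference by over 1.5 times for Cps1, Prodh and Bckdha and for no other member.

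The 4 tumor arrays differed from each other in one order for most members. The median member lay at -2.30 from the nontumor mean on tumor array 1, at -3.47 on array 2, at -1.55 on array 3 and at -3.97 on array 4. In 38 of 44 members the arrays ran 3, 1, 2, 4 from highest to lowest, against 6.98% of all genes and 18.2% of the 4147 genes that fell in tumor. Array 4 was lowest in 38 members (18.5% of all genes) and array 3 highest in 40 (27.2% of all genes). The exceptions to the order were Nags, Ahcy, Sds, Csad, Bckdha and Ivd. The tumor arrays of these 6 lay within 1.02 log2 units of each other.

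The members split by that spread. The highest and lowest tumor arrays differed by 3 log2 units or more in 16 members, by 1 to under 3 in 16 and by under 1 in 12. Hpd (5.47), Cth (5.09), Tdo2 (4.81) and Tat (4.70) spread the most. Ahcy (0.07), Sds (0.18), Bckdhb (0.33) and Ivd (0.38) spread the least, yet each of these 4 fell. The median tumor spread was 2.17 against 0.50 over the nontumor arrays, and over all genes the same medians were 0.27 and 0.36.

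Markers of hepatocytes were ordered alike, with arrays 3, 1, 2, 4 from highest to lowest in 11 of 12. The median level of 12 hepatocyte genes lay between 13.80 and 14.03 on the nontumor arrays and at 12.68, 11.62, 13.46 and 8.78 on tumor arrays 1 to 4. From the nontumor mean the 12 genes lay at a median of -1.01, -2.06, -0.36 and -5.01, so the median member lay lower than the median marker on arrays 1 to 3 and not on array 4. The falls start from unlike levels. The marker medians were near the highest value of each nontumor array (14.53 to 14.57), and the member medians there were 11.37 to 11.95. Whether this bears on the sizes of the falls was not tested. Of the 12, 7 fell, 1 rose and 4 (Alb, Apoa1, Apoc3 and Ahsg) did not pass. The rise was the probe set of transferrin (Tf), which read 6.20 in nontumor liver. All 7 measured bile duct genes rose, with a list median of 7.49 to 8.92 on the nontumor and 11.15 to 11.69 on the tumor arrays, and so did all 10 matrix genes. Falls were not confined to hepatocyte genes. Of 6 endothelial genes 3 rose and 3 fell, and of 7 macrophage genes 3 rose and 2 fell. The largest falls there were in Stab2 (-3.12 ± 0.21) of the first list and Clec4f (-3.85 ± 0.29) of the second. The part of cell makeup in the falls was not tested.

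Leaving out tumor array 4 gave a member median of -2.46, and leaving out array 3 gave -3.31. With tumor arrays 3 and 4 both left out, a setting chosen after seeing the data, it was -2.83 and all 44 genes still fell.

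Other genes of amino acid metabolism did not fall as one. Of 70 measured genes outside the 44, in 5 lists likewise chosen by name, 18 rose and 47 fell, with a median of -0.98. Over all measured genes 38.8% rose and 29.2% fell. After another round of quantile normalization 17 of the 70 rose and 45 fell. Aadat, a transaminase of kynurenine and aminoadipate, fell the most of them (-4.09 ± 0.85), and the GABA and beta-alanine transaminase Abat (-3.38 ± 0.40) and the glutamine carrier Slc38a3 (-3.41 ± 0.64) also fell. Gldc of the glycine cleavage system fell by 2.92 ± 0.27. In the list of synthesis and uptake genes 6 rose and 3 fell of 9, led by asparagine synthetase, Asns, from 6.21, 7.18, 6.91 and 6.97 to 8.58, 8.48, 9.19 and 8.62 (1.90 ± 0.23, adjusted p = 1.4e-04). The carrier genes Slc7a11 (-0.50 ± 0.17), Slc7a5 (-0.52 ± 0.15) and Slc3a2 (-0.32 ± 0.11) were the 3 that fell.

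Several rises were in partners of genes that fell, set side by side here after their values were seen. Mat2a makes S-adenosylmethionine outside the hepatocyte program. It read 9.84, 9.63, 9.56 and 9.81 in nontumor liver and 11.10, 11.31, 11.22 and 11.19 in tumor (1.49 ± 0.09, adjusted p = 3.6e-06), the opposite of Mat1a, with tumor arrays within a narrow range. Arg2, the mitochondrial arginase, rose from 6.05, 6.03, 6.46 and 6.17 to 7.38, 7.47, 6.95 and 7.79 (1.22 ± 0.17, adjusted p = 3.7e-04), the opposite of Arg1. Phgdh starts serine synthesis and rose from 7.45, 7.46, 7.87 and 7.79 to 9.90, 9.68, 9.21 and 10.16 (2.09 ± 0.20, adjusted p = 3.9e-05), while Sds, which consumes serine, fell. The next serine enzyme Psat1 rose by 1.34 ± 0.27.

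Around the branched-chain step, Bcat1 (1.52 ± 0.22) and Bcat2 (1.56 ± 0.10), which make the keto acids, rose, as did Bckdk (1.13 ± 0.10), the kinase that switches the dehydrogenase off, while Bckdha and Bckdhb fell. Aldh18a1 of proline synthesis rose by 1.33 ± 0.14 as Prodh fell. Glutamine synthetase, Glul, rose by 0.72 ± 0.19 from a spread of nontumor values (12.03, 11.76, 11.11 and 11.25) to nearly equal tumor values (12.26, 12.24, 12.32 and 12.21), while Gls2 fell. The aspartate carrier Slc25a13, which supplies Ass1, fell by 2.35 ± 0.23 and its counterpart Slc25a12 rose by 0.58 ± 0.10. Of the mitochondrial transaminases, Got2 fell by 0.51 ± 0.09, and Gpt2 gave -0.23 ± 0.24 and did not pass (adjusted p = 0.421). These pairs are compared by direction only, since probe sets of different genes share no scale.

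**Figure D3:**
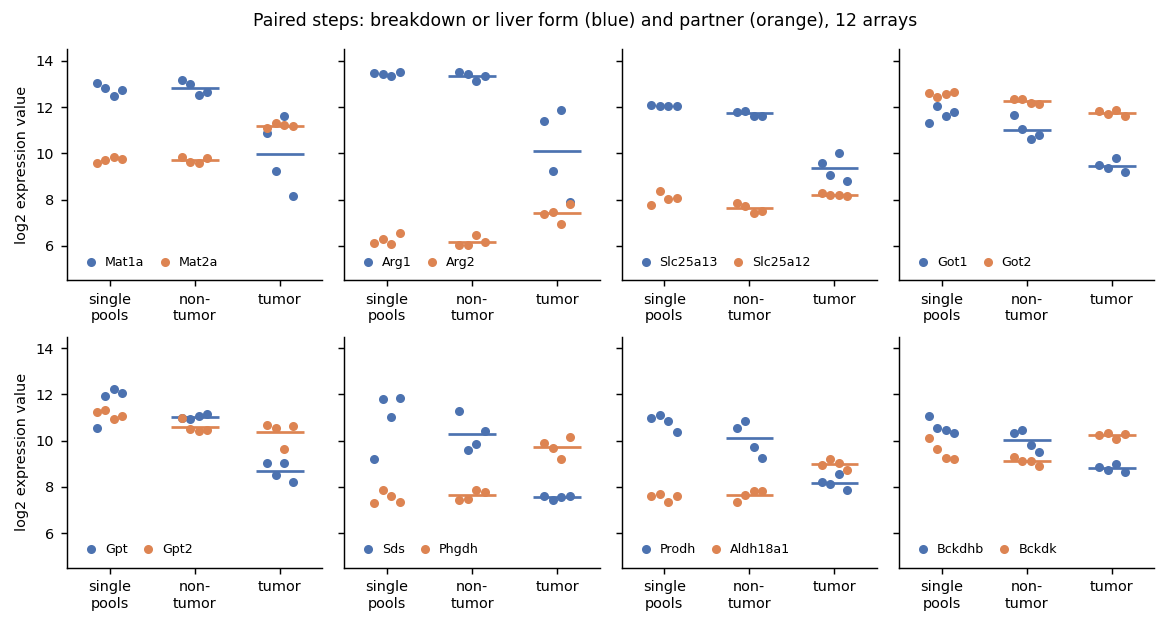
Log2 expression value on each of the 12 arrays for 8 pairs of genes, with the breakdown or liver form in blue and its partner in orange; points are arrays and bars are means of 4. In 6 pairs the blue gene falls from nontumor to tumor and the orange gene rises; for Got1 with Got2 both fall, and Gpt2 shows no called change.

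Of 11 genes for regulators of these pathways 7 fell and 0 rose, where 29.2% of all genes fell and 38.8% rose. The count of regulators that rose was 2 without tumor array 3 and 1 without nontumor array 2, with 7 falling in both. Hnf4a, a transcription factor that keeps hepatocyte genes on, fell from 12.66, 12.64, 12.38 and 12.54 to 11.53, 11.06, 11.93 and 11.16 (-1.14 ± 0.18, adjusted p = 7.1e-04), with tumor arrays in the order 3, 1, 4, 2. The glucagon receptor Gcgr fell the most (-2.57 ± 0.36), and Cebpa (-1.14 ± 0.18), Cebpb (-1.32 ± 0.28) and Klf15 (-1.58 ± 0.19) also fell. Of the 4 that did not pass, the glucocorticoid receptor Nr3c1 gave -0.11 ± 0.14 and Atf4 gave 0.12 ± 0.10. The other two gave 0.41 ± 0.24 (Foxa2) and 0.64 ± 0.44 (Onecut1).

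Promoters were looked at because members fell together. A RefSeq table on build GRCr8 held 35 of the 44, with 250 bases before and 50 after the start; where it listed several starts (Gls2, Sardh and Agxt) the first was used. CAAAGTCCA, letters bound by HNF4, was searched on both strands and found in 3 of 35 members (8.57%) and in 0.368% of 11700 measured genes with a promoter. TATAAA was found in 6 (17.1%, against 8.45%), TTGCNNAA, a C/EBP pattern, in 4 (11.4%, against 9.13%), and an HNF1 pattern in 0 (0.0598% of all). None of these motifs contains another, and a match describes letters and not a bound site. Hnf4a fell in tumor, as did all 44 members with or without these letters, and a link between them was not tested. The 3 promoters with the HNF4 letters are shown: the 250 bases before the start, 5′ to 3′ on the gene's strand, with the match in capitals.
Cps1: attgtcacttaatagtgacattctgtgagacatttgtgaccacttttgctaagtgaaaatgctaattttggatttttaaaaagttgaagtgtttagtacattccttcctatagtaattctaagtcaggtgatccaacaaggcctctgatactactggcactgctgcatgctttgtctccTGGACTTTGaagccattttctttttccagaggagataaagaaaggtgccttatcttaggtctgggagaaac
Kmo: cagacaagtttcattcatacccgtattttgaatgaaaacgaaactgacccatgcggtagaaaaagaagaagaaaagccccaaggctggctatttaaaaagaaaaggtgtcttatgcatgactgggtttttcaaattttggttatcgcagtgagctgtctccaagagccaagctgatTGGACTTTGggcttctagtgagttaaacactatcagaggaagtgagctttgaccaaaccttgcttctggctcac
Agxt2: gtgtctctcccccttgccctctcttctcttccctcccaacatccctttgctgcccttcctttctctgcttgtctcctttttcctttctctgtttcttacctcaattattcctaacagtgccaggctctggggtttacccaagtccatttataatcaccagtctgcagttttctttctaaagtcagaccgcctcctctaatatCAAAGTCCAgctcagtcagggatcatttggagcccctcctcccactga
Counted from the start, the first base of the match is at -71 in Cps1, -74 in Kmo and -48 in Agxt2, on the reverse strand in Cps1 and Kmo. The promoters lie on build GRCr8 at chr9:76063613-76063862 (Cps1, plus strand), chr13:90089271-90089520 (Kmo, plus strand) and chr2:61063166-61063415 (Agxt2, plus strand). These 3 genes differed in their falls, at -1.26 ± 0.44, -2.64 ± 0.40 and -3.35 ± 0.66.

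CpG, the pair of letters that can be methylated, was sparse in member promoters. The median count in the 300 bases was 10 over 35 members and 19 over 11700 measured genes. Members with fewer CpG had wider spreads over the tumor arrays: the 17 below the member median spread by a median of 3.59 log2 units, from 1.41 to 5.47, and the 17 above it by 1.02, from 0.07 to 5.09. Over the 35 genes Spearman's rho was -0.59 and Pearson's r -0.56, a description over genes that share the same arrays and are not independent. The tumor spread went with the nontumor level about as closely, at a rho of 0.62 and an r of 0.60 over all 44 members. The part of each in the spread was not tested. Over 3366 other genes that fell in tumor and have a promoter in the table, Spearman's rho was -0.03 and Pearson's r -0.17, and the medians below and above the same count were 0.244 and 0.244. Cth, with 15 CpG and a spread of 5.09, and Bhmt, with 12 and 4.15, went against the pattern.

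The member with the widest and the one with the narrowest tumor spread, Hpd and Ahcy, and the pair Mat1a and Mat2a, of which one fell and the other rose, are shown with each CpG in capitals, again as the 250 bases before the start.
Hpd: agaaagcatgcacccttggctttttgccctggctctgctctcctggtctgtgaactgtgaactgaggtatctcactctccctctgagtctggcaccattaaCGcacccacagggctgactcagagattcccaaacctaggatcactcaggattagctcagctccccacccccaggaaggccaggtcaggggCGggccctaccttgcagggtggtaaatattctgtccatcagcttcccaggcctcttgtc
Ahcy: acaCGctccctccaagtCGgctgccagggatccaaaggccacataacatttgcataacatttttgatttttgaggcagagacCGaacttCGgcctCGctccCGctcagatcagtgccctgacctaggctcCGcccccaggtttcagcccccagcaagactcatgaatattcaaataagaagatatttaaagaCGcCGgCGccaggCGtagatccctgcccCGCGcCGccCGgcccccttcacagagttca
Mat1a: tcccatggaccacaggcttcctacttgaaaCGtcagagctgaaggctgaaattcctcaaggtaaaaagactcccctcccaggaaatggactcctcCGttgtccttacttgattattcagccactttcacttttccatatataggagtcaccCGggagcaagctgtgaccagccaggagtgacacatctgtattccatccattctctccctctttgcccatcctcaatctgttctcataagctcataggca
Mat2a: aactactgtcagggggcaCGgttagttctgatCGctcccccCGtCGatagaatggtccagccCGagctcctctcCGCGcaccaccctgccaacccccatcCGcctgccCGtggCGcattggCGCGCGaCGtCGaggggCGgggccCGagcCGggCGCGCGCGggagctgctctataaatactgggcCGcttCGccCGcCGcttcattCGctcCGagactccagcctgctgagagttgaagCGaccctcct
The capitals number 2 pairs in Hpd, 15 in Ahcy, 3 in Mat1a and 29 in Mat2a. On build GRCr8 they lie at chr12:39041996-39042245 (Hpd, plus strand), chr3:164044563-164044812 (Ahcy, minus strand), chr16:17016918-17017167 (Mat1a, plus strand) and chr4:106053613-106053862 (Mat2a, minus strand). DNA methylation was not analysed here.

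**Figure D4:**
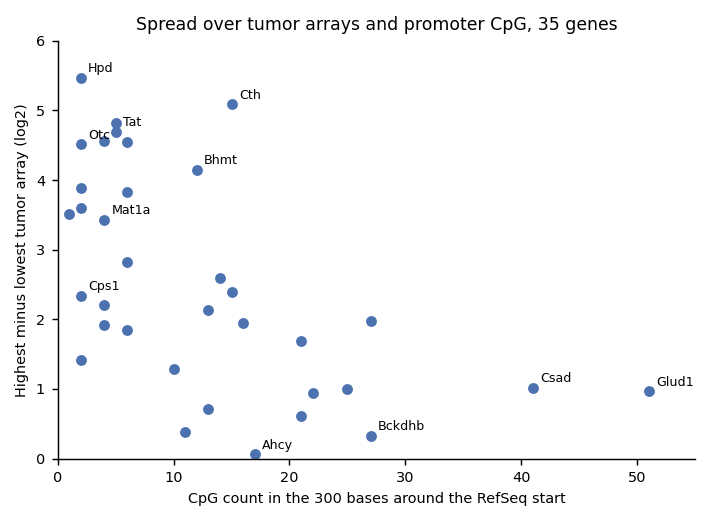
Count of CpG in the 300 bases around the RefSeq start (horizontal axis) and the difference between the highest and the lowest of 4 tumor arrays in log2 units (vertical axis), 1 point for each of 35 genes. Points with few CpG reach from 1.41 up to 5.47, most points with many lie below 2, and Cth and Bhmt stand apart above them.

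Nontumor liver at 67 weeks was set against the LEA control and against each younger LEC pool, to see whether these genes differ before or outside the tumors. By limma 0 of 44 members passed in any of the 4 comparisons, where 0.563% (LEA), 0.464% (4 weeks), 0.239% (26 weeks) and 0.155% (39 weeks) of all genes did. At an unadjusted p under 0.05, 3, 4, 2 and 3 members passed, or 6.82%, 9.09%, 4.55% and 6.82%, against 12.4%, 13.5%, 11.8% and 10.4% of all genes. A pool of 1 array adds nothing to the estimated spread, and its own spread was taken from the tumor and nontumor groups. The 4 comparisons share the nontumor arrays. Xist and Eif2s3y differ between those arrays and the LEC pools of 26 and 39 weeks, so age and that difference cannot be told apart there. Median member differences were -0.29 against LEA and -0.21, -0.13 and -0.24 against LEC at 4, 26 and 39 weeks, and over all genes they lay between -0.07 and -0.0008. The error of each gene was estimated over the replicated groups, tumor included. The median spread over the tumor arrays was 2.17 log2 units for members and 0.27 for all genes. The shares that passed therefore cannot show whether members were steadier than other genes outside the tumors. Standard errors of the members against LEA ran from 0.15 (Ahcy) to 1.55 (Hpd).

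Ivd, of leucine breakdown, was the member at an unadjusted p under 0.05 in all 4 comparisons. Its levels were 10.39, 10.54, 10.07 and 9.99 on the nontumor arrays, and it was 11.15 in LEA and 11.25, 11.00 and 11.16 in LEC at 4, 26 and 39 weeks, so all nontumor arrays lay below all pools. Its differences were -0.91 ± 0.22 against LEA and -1.01 ± 0.22, -0.76 ± 0.22 and -0.91 ± 0.22 against the 3 ages, with adjusted p from 0.111 to 0.28. Against the mean of the 4 pools, a contrast chosen after seeing the data, Ivd fell by 0.90 ± 0.14 (adjusted p = 0.0273), the one member called there, where 1.03% of all genes were. That call was lost without nontumor array 3 (adjusted p = 0.0856), without tumor array 1 (0.0648) or 2 (0.0602), and without tumor arrays 3 and 4 together (0.0566), and over all alternatives adjusted p lay between 0.015 and 0.0856. Against the mean of LEA and LEC 4 weeks, which leaves out both pools with Eif2s3y signal, the difference was -0.96 ± 0.17 (adjusted p = 0.046), where 0.943% of all genes were called. The tumor arrays were lower again, at 8.59, 8.50, 8.87 and 8.54.

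Csad lay at 9.41 in LEA, and at 10.96, 11.52 and 11.66 in LEC at 4, 26 and 39 weeks and 11.19, 11.14, 11.17 and 11.46 in nontumor liver. The LEA array thus stood below all others without tumor, nontumor minus LEA was 1.83 ± 0.32, and the adjusted p of 0.0515 just missed the threshold (0.00674 to 0.124 over the alternatives). Sds was lowest in LEA too, at 9.19, and higher in the younger LEC pools (11.80, 11.01 and 11.85) than in 3 of 4 nontumor arrays; its differences from LEC at 4 and 39 weeks were -1.51 ± 0.50 and -1.56 ± 0.50 (adjusted p = 0.249 and 0.358). Gpt stood at 10.56 in LEA, 11.95, 12.22 and 12.06 in the LEC pools and 10.97, 10.95, 11.08 and 11.14 in nontumor liver, with differences of -0.92 ± 0.29, -1.19 ± 0.29 and -1.02 ± 0.29 from the 3 ages (adjusted p from 0.22 to 0.316). Got1 (-1.01 ± 0.35 against 4 weeks) and Bckdhb (-1.04 ± 0.32 against LEA) were the other members at an unadjusted p under 0.05.

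In 8 of 44 members all nontumor arrays lay below all 4 pools, and in 0 above, against 6.36% and 2.64% of all genes. These were Gls2, Glud1, Gnmt, Cbs, Agxt, Upb1, Aldh4a1 and Ivd. Gnmt had the largest of these gaps in means, at -1.20 ± 0.52 against the 4 pools, from 12.52, 12.35, 11.19 and 11.10 in nontumor, and LEA read 12.87 and LEC 13.01, 13.26 and 12.82 at 4, 26 and 39 weeks. Agxt read 10.88, 10.99, 10.26 and 9.45, and the LEA pool stood at 11.71 and the LEC pools of 4, 26 and 39 weeks at 11.13, 11.32 and 11.00. For Gnmt and Agxt, nontumor arrays 3 and 4 were the low ones.

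That split of the nontumor arrays ran through the set. Arrays 1 and 2 both lay above arrays 3 and 4 in 34 of 44 members, against 38.7% of all genes, and the member median was 11.95, 11.94, 11.37 and 11.45 on arrays 1 to 4. The exceptions were Otc, Gpt, Tat, Haao, Bhmt, Sds, Agxt2, Csad, Hal and Uroc1. Lists of genes that differ between the sexes in rat liver were set beside it. On nontumor arrays 1 to 4 the median of 7 male-biased genes was 8.24, 7.65, 10.69 and 9.99. That of 5 female-biased genes was 12.70, 12.40, 10.92 and 10.64. The median spread of a gene over these arrays was 2.76 in the first list and 0.70 in the second. Cyp2c11, a male-biased P450, read 8.24, 7.58, 10.77 and 9.99. The female-biased A1bg read 12.41, 12.04, 6.90 and 9.31, a wider spread than the median of its list. Their part in the members' levels was not tested.

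Among the single pools of LEC liver, 0 members moved by 2-fold from 4 to 26 weeks and from 26 to 39 weeks, which is near the background: 2.57% of all genes were higher and 0.563% lower in the first step and 0.0774% and 0.134% in the second. Xist and Eif2s3y differ between the 4-week pool and the later ones, so age and that difference cannot be told apart. Each LEC pool exceeded LEA by 2-fold or more in 3 members, Sds, Gpt and Csad, and lay that far below it in 0. The shares of all genes higher were 0.943%, 2.83% and 3.05% at 4, 26 and 39 weeks, and those lower were 1.36%, 1.17% and 1.36%. Sds was 6.13-fold, 3.54-fold and 6.33-fold above LEA at the 3 ages, Gpt 2.63-fold, 3.17-fold and 2.83-fold, and Csad 2.94-fold, 4.32-fold and 4.75-fold. With 1 array each these values have no replicate check. All 3 comparisons share the LEA array, and strain and age differ together in them. Xist and Eif2s3y also differ between LEA and the LEC pools of 26 and 39 weeks, and that difference cannot be told apart there either.

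**Figure D5:**
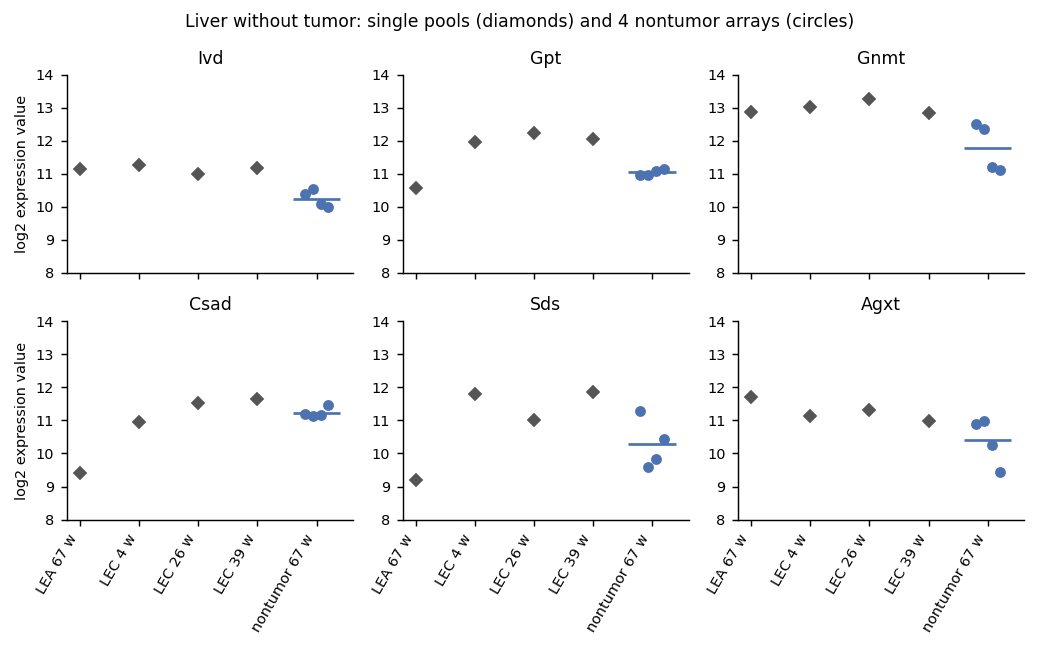
Log2 expression value of 6 members in liver without tumor: single pools as diamonds (LEA at 67 weeks, LEC at 4, 26 and 39 weeks) and the 4 nontumor arrays at 67 weeks as circles with their mean as a bar. Ivd, Gnmt and Agxt show all nontumor arrays below all pools, and Csad and Sds show the LEA array lowest, below 9.5.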

How the data were processed

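RNA of 12 pooled rat liver samples was measured on 12 oligonucleotide arrays with 1 color. The authors deposited log2 expression values, for which the submitters' processing notes name RMA and R 2.6.1, in 1 table of 31099 probe sets; depth does not apply, and the number of arrays limits the precision. Leaving out 57 control probe sets left 31042, of which 20826 had 1 gene, 436 several and 9780 none in the platform annotation; symbols were updated by Entrez number for 20758. Each gene was read from its probe set with the highest mean (14217 genes). Group means of all 12 arrays were fitted with limma 3.58.1 in R 4.3.3 (6 residual and 2.84 prior degrees of freedom), two-sided, with Benjamini-Hochberg adjustment over 31042 probe sets. The members, lists and tests were chosen with earlier results of these data known. Genes given array by array were Cps1, Otc, Ass1, Asl, Arg1, Tat, Tdo2, Mat1a and Glud1, and those with the largest and smallest difference of each pathway; others were chosen after their values were seen. Simulated data kept the mean and residual spread of each probe set. The changed ones were drawn at random from all probe sets, 50 at each size of 0.5, 1, 2 and 4 log2 units. There the tumor comparison recovered 34 of 50 changed by 1 log2 unit and 48 of 50 changed by 2, with 9 false among 155 calls. In the data 38.8% of genes rose and 29.2% fell in tumor, a far larger share, so these rates do not carry over to that comparison. The comparison with LEA recovered 20 and 43 of 50, with 7 false among 122, all over 31042 probe sets. Promoters came from RefSeq on GRCr8. Tables used Python 3.11.15 and pandas 2.3.3, and figures matplotlib 3.10.9. Alternatives tried were quantile normalization again, array medians subtracted, array weights, a trended robust prior, dim probe sets left out, the mean over probe sets, the replicate number as a block and each array left out.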

Additional observations from a re-analysis of the deposited data

Results flagged for a closer look

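Among 88 groups of 4 arrays (44 genes, tumor and nontumor), 2 had 1 array far from the other 3 by Dixon's test, which chance gives in about 1 of 20 groups. Csad was highest on nontumor array 4 at 11.46, with the next array at 11.19. Hal was highest on nontumor array 2 at 11.35, with the next at 10.97.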

How the results depend on the processing

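Against nontumor liver 44 members were called under every alternative that keeps all arrays (quantile normalization again, array medians subtracted, array weights, trended robust prior, dim probe sets left out, mean over probe sets), 43 also with a 2-fold threshold, and 43 to 44 with 1 array left out. The member lost was Cps1, whose difference was -1.23, -1.17 and -1.28 without nontumor arrays 1, 2 and 3. Correlations of deviations between same-numbered tumor and nontumor arrays were 0.054, 0.142, -0.082 and 0.142. Between arrays of unlike number they ran from -0.144 to 0.108. With 4 arrays in each group such values cannot settle whether the replicate numbers pair the samples. With the replicate block 44 members were called and 1 of 11 regulators rose. Against LEA the count of 0 became 1 (Csad) with a trended robust prior, and was 0 to 1 with 1 array left out (Csad without tumor array 1). Against LEC 4 weeks it became 1 (Ivd) with array weights, and was 0 to 1 with 1 array left out (Sds without nontumor array 1). Against the mean of 4 pools the count of 1 (Ivd) became 0 without tumor arrays 3 and 4 and 0 with a 2-fold threshold, and was 0 to 1 with 1 array left out. These changes follow fits with fewer arrays or another error model; their cause was not tested. With 12 arrays and lone pools, changes near 1 log2 unit against a pool can be missed: 20 of 50 simulated ones were recovered against LEA. Those were drawn from all probe sets, so this is not the rate for members. Members spread more over the tumor arrays, by a median of 2.17 against 0.27 for all genes. Their standard errors against LEA reached 1.55 (Hpd), so larger changes of members can be missed as well.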
